A study of Bos taurus with 15 samples.

Results

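The genes described here encode proteins of the acrosome and proteins with which a sperm binds and fuses with an egg: ACR, ACRV1, SPACA1, SPACA3, SPACA4, ZPBP, ZPBP2, SPAM1, IZUMO1 and ADAM2. They were taken as a list of 10 names, and a probe of the array belonged to a gene when its gene name, gene number, accession or description named that gene. Of the 10 genes, 8 had a probe, against 15051 genes with a probe on the whole array. No probe on the array used here was named for ZPBP or SPACA4, so these 2 genes were not analysed here. The probe of SPAM1 was not well above background on any array, and the other 7 genes entered the comparison.

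Testis RNA was hybridised to bovine Agilent oligonucleotide arrays in a single colour, with 1 array for each of 15 animals. The 8 prednisolone animals, numbered 25 to 32, had received 30 mg of prednisolone per head by mouth every day for 35 days. The 7 control animals, numbered 17, 18 and 20 to 24, were untreated. Prednisolone is a synthetic glucocorticoid, and the comparison asked how the testis transcripts of treated and untreated animals differed. All tissue was collected at slaughter, the labels call the animals cows although the tissue is testis, and the labels used here give neither age nor breed.

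The acrosome is a secretory vesicle that forms from the Golgi apparatus and spreads over the nucleus of the round spermatid. Its contents are released when the sperm meets the egg coat, the zona pellucida, and membrane proteins exposed by this release take part in binding and fusion. In mammals the genes are transcribed mostly in late meiotic cells and spermatids, so that their transcripts in whole testis mark the later part of spermatogenesis. In bulk tissue, fewer spermatids and less RNA per spermatid cannot be told apart, and this holds for each value below.

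A level is the log2 processed signal of a probe minus the 75th percentile of its array, so that 0 is the brightness of that percentile and 1 unit is a doubling. Levels of different probes were not set against each other, because probes differ in how well they bind. The scanner software called 82.2% to 89.9% of probes well above background on 14 arrays, whose 75th percentiles were 1220 to 2780. On these counts prednisolone 30 stood apart, at 36.5% of probes and a percentile of 49.8, with correlations of 0.705 to 0.736 with the other arrays. Scanner file and column of this animal in the authors' deposited table were different measurements: their gene-centred values correlated at 0.0044, against 0.883 to 0.976 for the other 14. Control 17 had the lowest control level for 6 of the 7 genes, and leaving it out was an alternative listed with earlier results of these data known. Results are therefore given with and without these 2 animals. The label testis fitted the markers of late germ cells: the protamine gene PRM1 averaged 7.87 ± 0.15 in prednisolone and 7.78 ± 0.28 in control testis (SD, n = 8 and 7). The transition protein gene TNP1 averaged 5.77 ± 0.38 in prednisolone and 5.74 ± 0.39 in control testis. The probe of the second protamine, PRM2, was well above background on 0 of 8 prednisolone arrays and 1 of 7 control arrays.

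None of the 7 acrosome and sperm-egg binding genes differed between prednisolone and control testis past the threshold. The threshold was an adjusted p of 0.05 from limma, a linear model fitted to all 17411 tested probes with Benjamini-Hochberg adjustment over them. Over all tested probes the share past it was 0%, and the smallest adjusted p anywhere was 0.885, so the count of 0 for the 7 genes equals the background. At an unadjusted p under 0.05 there were 0 of the 7 genes, against 2.69% of all probes. Of the 7 differences, prednisolone minus control, 4 were above 0 (ACR, ACRV1, SPACA3 and IZUMO1) and 3 below (SPACA1, ZPBP2 and ADAM2), and 52.4% of all probes were above 0. The median difference was 0.01 on the log2 scale, and the median over all 12806 tested genes was -0.0007. The 95% intervals of all 7 genes on all 15 arrays included 0.

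The same counts were taken without the 2 animals that stood apart. Without prednisolone 30, 4 of the 7 differences were above 0, beside 52.3% of all probes, and the median was 0.07. In that setting 1 of the 7, IZUMO1, had an unadjusted p under 0.05, beside 4.55% of all probes. Without control 17, 2 of the 7 were above 0, beside 51.5% of all probes, with a median of -0.11, and 0 of the 7 had an unadjusted p under 0.05, beside 2.37% of all probes. Without both, 3 of the 7 were above 0, beside 51.8% of all probes, with a median of -0.04, and 0 of the 7 had an unadjusted p under 0.05, beside 5.21% of all probes. The share past the threshold was 0% of all probes in each case.

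**Figure D1:**
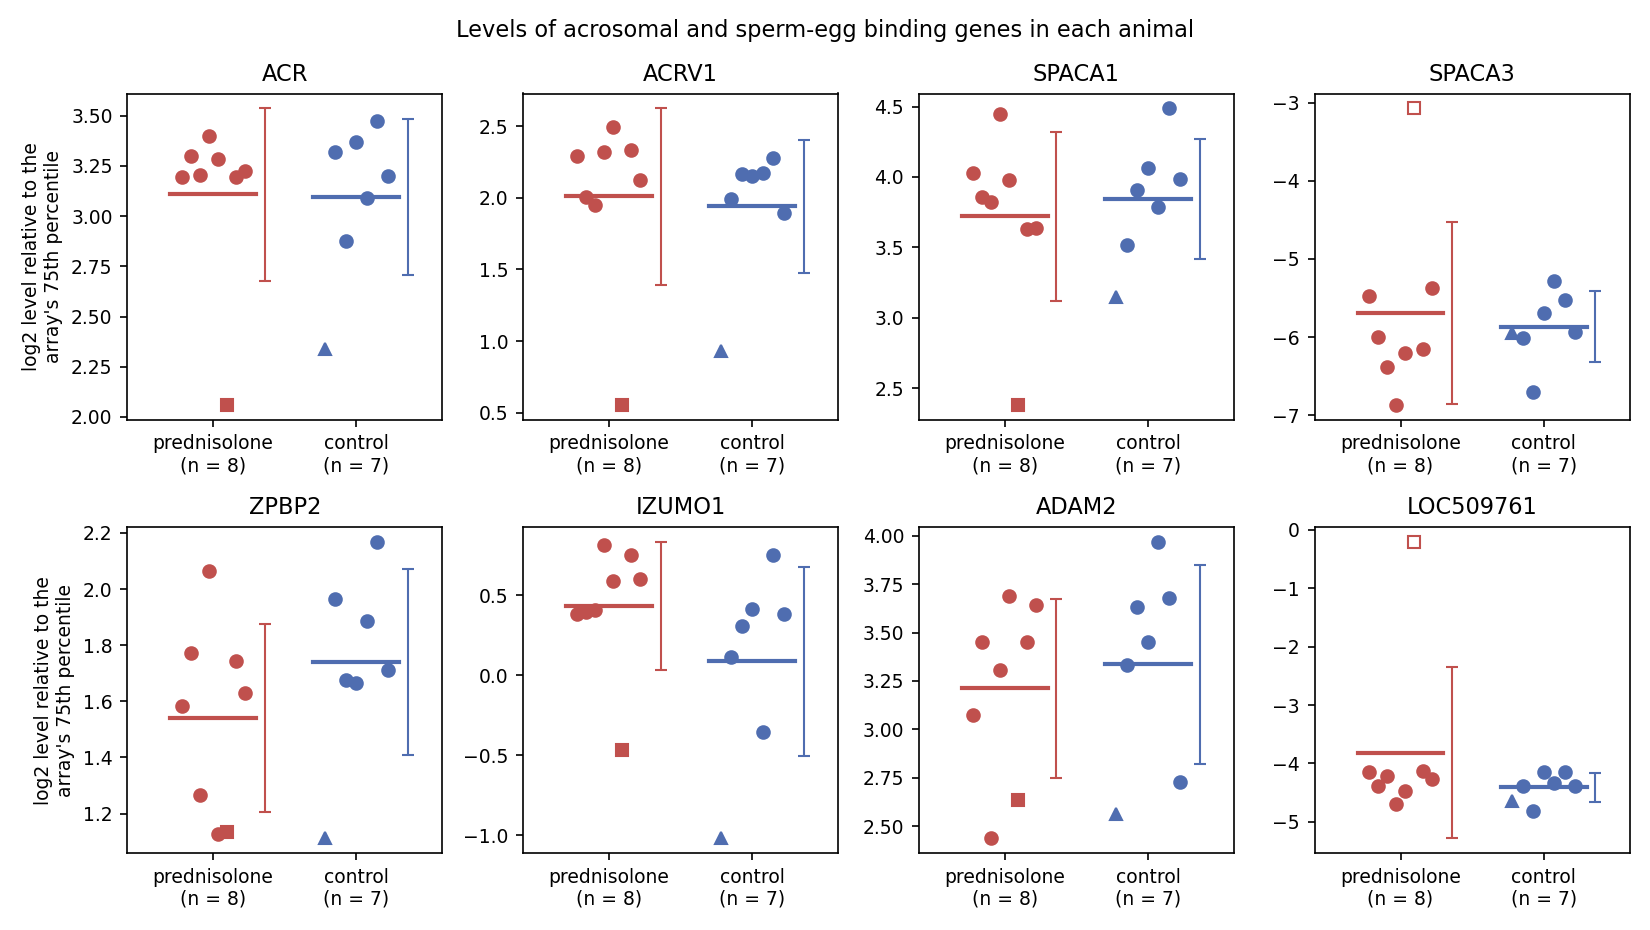
The log2 level of each tested gene relative to the 75th percentile of the array, for 8 prednisolone animals (left of each panel) and 7 control animals (right); lines are means and bars SDs, the square is prednisolone 30, the triangle control 17, and an open symbol a probe not well above background. LOC509761, described as similar to PH-20, is plotted last and is not one of the 7 genes. The groups overlap in each panel, and prednisolone 30 and control 17 lie at or near the bottom of most panels.

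The contents of the acrosome come first. ACR encodes acrosin, the trypsin-like protease stored in the acrosome as an inactive precursor. Its lowest, median and highest levels were 2.06, 3.21 and 3.40 in prednisolone testis, against 2.34, 3.20 and 3.47 in control testis. The lowest values belonged to prednisolone 30 and control 17, and the other 7 prednisolone animals lay between 3.19 and 3.40. The mean was 3.11 ± 0.43 with prednisolone and 3.10 ± 0.39 in controls (SD, n = 8 and 7), a difference of 0.01 with a 95% interval from -0.44 to 0.46 (limma, adjusted p = 0.990). Leaving out prednisolone 30 alone gave 0.16 and leaving out control 17 alone gave -0.11, and the sign turned in 8 of the 15 comparisons that left out 1 animal. Without both animals the difference was 0.04, with an interval from -0.19 to 0.27. On a linear scale that interval runs from 0.874 to 1.20 times the control level.

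ACRV1 encodes SP-10, a protein of the acrosomal matrix that is widely used to mark round spermatids. It had levels of 0.56, 2.21 and 2.49 (lowest, median and highest) in prednisolone testis, against 0.93, 2.15 and 2.28 in control testis. Prednisolone 30 and control 17 were again the lowest of their groups, and the groups overlapped throughout. The means were 2.01 ± 0.61 with prednisolone and 1.94 ± 0.46 in controls, a difference of 0.07 with an interval from -0.51 to 0.64 (limma, adjusted p = 0.954). The sign turned when control 17 alone was left out (-0.10) and when prednisolone 29 alone was left out (-0.0012). Leaving out prednisolone 30 gave 0.28, and leaving out prednisolone 30 and control 17 together gave 0.11. With both left out the interval ran from -0.13 to 0.35. The 2 spots of the ACRV1 probe differed by 0.57 on control 17, 0.92 on control 20 and 0.59 on prednisolone 30, against a median of 0.15 over 14 arrays.

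SPACA3 encodes a lysozyme-like protein of the acrosome that, in the mouse, has been linked to binding of the egg membrane. Its probe was dim: the processed signal lay between 17.1 and 44.9 on 7 prednisolone arrays and between 16.3 and 56.1 on the control arrays, and it was well above background on 7 of 8 and 7 of 7. The levels were -6.87, -6.08 and -3.07 in prednisolone testis, against -6.70, -5.93 and -5.28 in control testis (lowest, median and highest). The value of -3.07 belonged to prednisolone 30, where the probe was not well above background and where the lowest level of any probe was -4.75, against -10.2 to -8.83 on the other arrays. The means were -5.69 ± 1.16 with prednisolone and -5.87 ± 0.45 in controls, a difference of 0.18 (interval -0.73 to 1.08, limma, adjusted p = 0.930). Without prednisolone 30 the difference was -0.20, with an interval from -0.70 to 0.31, so its sign rested on an array that did not detect the gene.

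SPAM1 encodes PH-20, the sperm hyaluronidase that helps the sperm through the cells and the coat around the egg. The probe passed the background limit on 0 of 8 prednisolone arrays and 0 of 7 control arrays. The processed signal was 1.96 to 4.03 on the prednisolone arrays other than that of prednisolone 30, 3.28 on that array, and 2.48 to 3.92 on the control arrays. These values bound the level from above only, and no difference is given. A second probe, of LOC509761, is described in the scanner files as similar to hyaluronidase PH-20 and is a gene of its own in the bovine annotation. It is named here for its description, with its values already seen, and was not counted among the 10 genes. It was well above background on 7 of 8 prednisolone arrays and 7 of 7 control arrays. Without prednisolone 30, where its level was -0.21 and not well above background, LOC509761 averaged -4.33 ± 0.20 with prednisolone and -4.41 ± 0.25 in controls (SD, n = 7 each), a difference of 0.08 (interval -0.20 to 0.36).

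Among the proteins of the acrosomal membrane, SPACA1 encodes a protein of the inner acrosomal membrane that, in the mouse, is needed to shape the acrosome. Its levels were 2.38, 3.84 and 4.45 in prednisolone testis, against 3.14, 3.90 and 4.49 in control testis (lowest, median and highest). Prednisolone 30 was the lowest of all 15, and control 17 was the lowest control. The means were 3.72 ± 0.60 with prednisolone and 3.84 ± 0.43 in controls, a difference of -0.12 (interval -0.67 to 0.43, limma, adjusted p = 0.921). Without prednisolone 30 the difference was 0.07, and without both animals it was -0.04 with an interval from -0.39 to 0.30. The 2 spots of this probe differed by 1.06 on prednisolone 31 and by 1.09 on prednisolone 32, against a median of 0.16 over 14 arrays. They also differed by 0.81 on prednisolone 30, by 0.85 on control 18 and by 0.70 on control 20.

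ZPBP2 encodes a zona pellucida binding protein of the acrosomal matrix, related to ZPBP. Levels were 1.13, 1.61 and 2.06 in prednisolone testis, against 1.11, 1.71 and 2.17 in control testis (lowest, median and highest). Here prednisolone 29 and prednisolone 30 were both at 1.13, next to control 17 at 1.11. On prednisolone 29 the 2 spots differed by 1.21. The means were 1.54 ± 0.34 with prednisolone and 1.74 ± 0.33 in controls, a difference of -0.20 (interval -0.59 to 0.19, limma, adjusted p = 0.885). The difference stayed below 0 without prednisolone 30 (-0.14), without control 17 (-0.31) and without both (-0.25, interval -0.56 to 0.07). With both left out, ZPBP2 averaged 0.843 times its control level, with an interval from 0.676 to 1.05.

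ADAM2 encodes fertilin beta, a subunit of the fertilin complex on the sperm surface, which in the mouse is needed for sperm migration into the oviduct and for binding to the egg. Levels were 2.44, 3.38 and 3.69 in prednisolone testis, against 2.56, 3.45 and 3.97 in control testis (lowest, median and highest). The lowest prednisolone value belonged to prednisolone 27, at 2.44, and not to prednisolone 30, at 2.64. Among the controls, control 24 at 2.73 was close to control 17 at 2.56, and control 22 was the highest of all 15 animals. The means were 3.21 ± 0.46 with prednisolone and 3.34 ± 0.51 in controls, a difference of -0.13 (interval -0.64 to 0.39, limma, adjusted p = 0.913). Without both animals the difference was -0.17, with an interval from -0.63 to 0.28.

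IZUMO1 encodes the sperm membrane protein that binds the egg receptor JUNO and is needed for fusion of the gametes. It had the largest difference of the 7 genes on all 15 arrays. Levels were -0.47, 0.50 and 0.81 in prednisolone testis, against -1.02, 0.31 and 0.75 in control testis (lowest, median and highest). All prednisolone animals other than prednisolone 30 lay above both the control mean and the control median, and 3 controls lay within their range. The means were 0.43 ± 0.40 with prednisolone and 0.09 ± 0.59 in controls. The difference was 0.35 with an interval from -0.18 to 0.87, or 1.27 times the control level with an interval from 0.883 to 1.83 (limma, unadjusted p = 0.182, adjusted p = 0.885). Without prednisolone 30 it was 0.48, with an unadjusted p of 0.0418 and an adjusted p of 0.964, where 4.55% of all probes had an unadjusted p under 0.05 and 0% passed the threshold. Without control 17 the difference was 0.16, and without both animals 0.29 (interval -0.03 to 0.62). IZUMO1 did not pass the threshold in any of these comparisons.

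**Figure D2:**
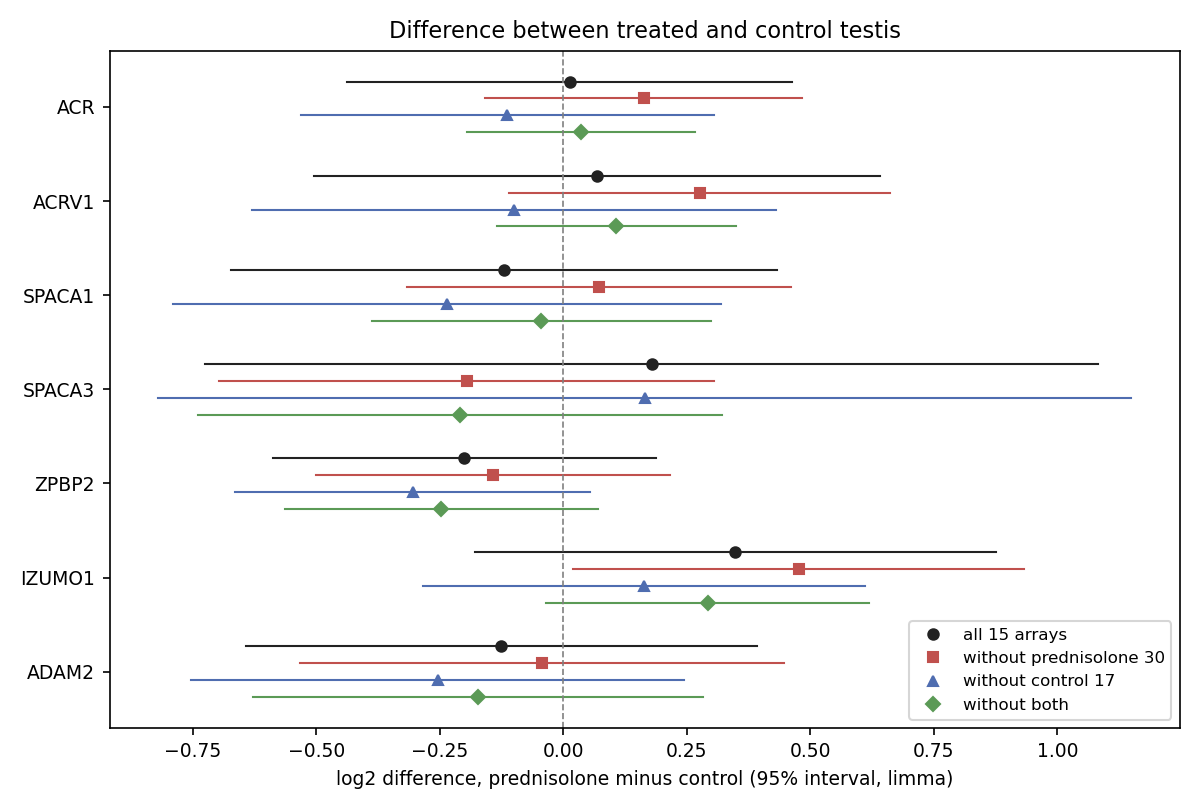
Difference in log2 level, prednisolone minus control, for each tested gene with its 95% interval from limma, on all 15 arrays, without prednisolone 30, without control 17 and without both. Only the interval of IZUMO1 without prednisolone 30 leaves out 0, and leaving out control 17 moves all 7 differences downwards, SPACA3 the least.

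In the authors' deposited table, whose column for prednisolone 30 is not the scanner file used above, the values of prednisolone 30 lay within the range of the other prednisolone animals for all 7 genes. The differences on the log2 scale of the authors' deposited table were 0.12 for ACR, 0.25 for ACRV1, 0.04 for SPACA1, -0.11 for SPACA3, -0.16 for ZPBP2, 0.46 for IZUMO1 and -0.05 for ADAM2. The unadjusted p of IZUMO1 in the authors' deposited table was 0.0292 and its adjusted p 0.838 (limma). At an unadjusted p under 0.05 the background in the authors' deposited table was 5.85% of probes, and 0% passed the threshold. Differences were above 0 for 4 of the 7 genes, ACR, ACRV1, SPACA1 and IZUMO1, and for 48.5% of all probes of the authors' deposited table. Leaving out control 17 from the authors' deposited table lowered the difference of IZUMO1 to 0.29, with an unadjusted p of 0.0538.

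Slide and scan day were known from the file headers, and few of them held both groups. Slide 1 held prednisolone 25 and 26 with control 17 and 18, and slide 4 held prednisolone 29 and 30 with control 23. Within slide 1 all 7 differences were above 0, from 0.14 for ZPBP2 to 0.84 for IZUMO1. Within slide 4 the differences were below 0 for 6 genes, from -0.52 for ADAM2 to -1.31 for SPACA1, and SPACA3 was at 0.88. Each slide held 1 of the 2 animals that stood apart. Control 23, the only control on slide 4, had the highest control level for ACR, ACRV1, SPACA1, ZPBP2 and IZUMO1. The SPACA3 probe was not well above background on prednisolone 30. Scan day 1 held 6 prednisolone and 3 control animals, and every other scan day held 1 group. Within scan day 1 the differences were 0.43 for IZUMO1, -0.25 for ZPBP2, -0.003 for ACR, 0.23 for ACRV1, -0.13 for SPACA1, 0.13 for ADAM2 and 0.45 for SPACA3. With both animals left out of that day, IZUMO1 was at 0.11, ZPBP2 at -0.49 and ACR at -0.16. None of these passed the threshold (limma).

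The spread between animals was compared with that of 12452 genes well above background on the 14 arrays without prednisolone 30. Within groups the SD of the log2 level was 0.28 for ACR, 0.36 for ACRV1, 0.36 for SPACA1, 0.49 for SPACA3, 0.32 for ZPBP2, 0.44 for IZUMO1 and 0.47 for ADAM2, and the median of all genes was 0.305. Among all genes these SDs lay at the 41.3rd percentile for ACR, the 65.1st for ACRV1, the 66.2nd for SPACA1 and the 86.8th for SPACA3. ZPBP2 lay at the 56.2nd, IZUMO1 at the 81.2nd and ADAM2 at the 85.6th. Control 17 was the lowest control for each of these genes but SPACA3. It was left out for standing apart, so lower SDs without it are no separate result. Without it the SDs were 0.16 for ACR, 0.17 for ACRV1, 0.30 for SPACA1 and 0.51 for SPACA3. They were 0.27 for ZPBP2, 0.28 for IZUMO1 and 0.43 for ADAM2, and the median of all genes was 0.270. Duplicate spots of a probe differed by medians of 0.07 to 0.17 over the 14 arrays, and 15 of 120 pairs of spots, 5 of them on prednisolone 30, differed by more than 0.5.

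Levels of the 7 genes were also compared across animals, as correlations over arrays that share labelling and scaling and with no test. The median Pearson r over 21 pairs of genes was 0.56 on 15 arrays, 0.42 on the 14 without prednisolone 30 and 0.15 on the 13 without control 17 as well. ACR, ACRV1, SPACA1 and IZUMO1, picked out after their values were seen, correlated with each other at 0.67 to 0.83 on 14 arrays and at 0.14 to 0.47 on 13. SPACA3 had r between -0.22 and 0.25 with the other genes on 14 arrays. ADAM2 reached 0.64 with ACRV1 on 14 arrays and 0.53 on 13, the highest of any pair on 13. The correlations among those 4 genes were thus lower without control 17.

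**Figure D3:**
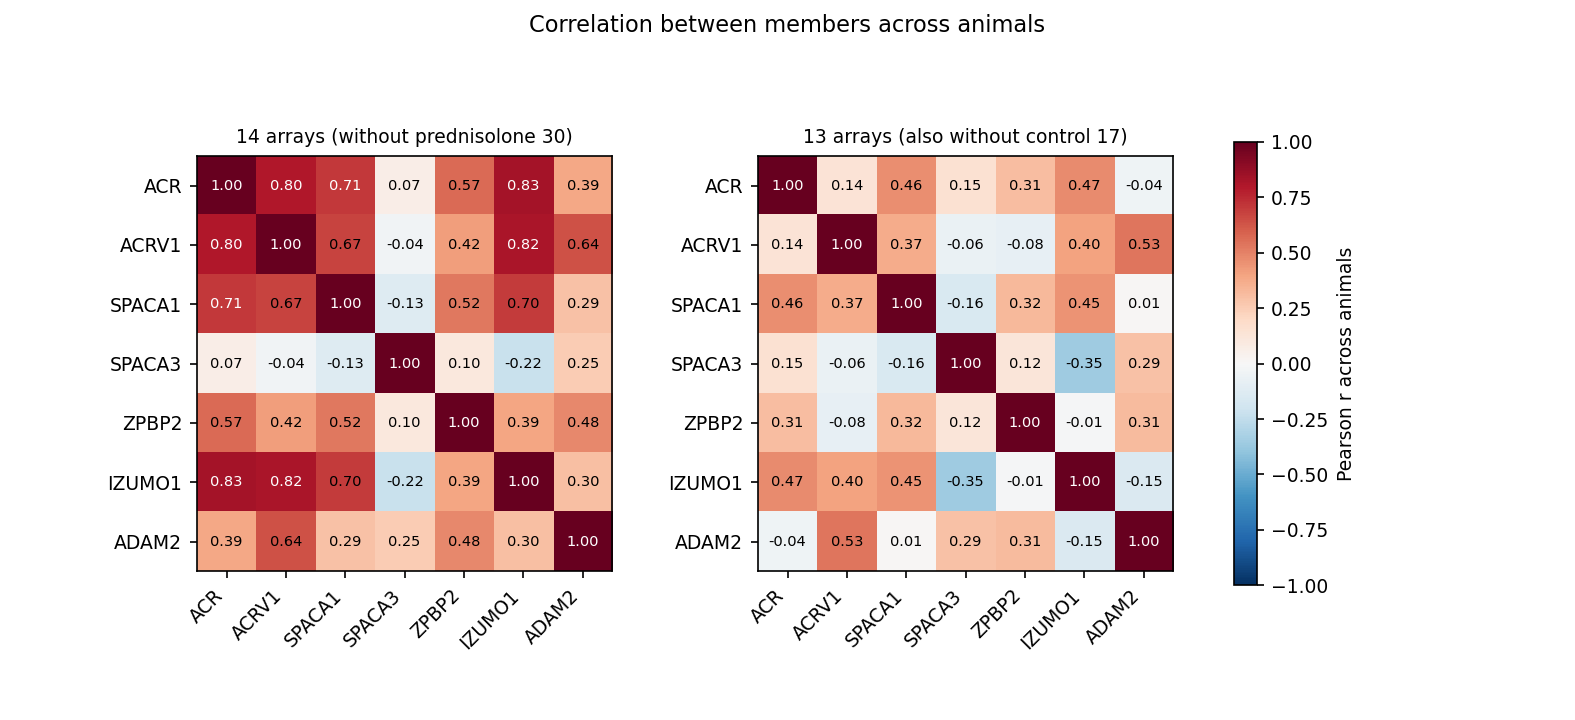
Pearson r between the log2 levels of each pair of tested genes across animals, on 14 arrays without prednisolone 30 (left) and on 13 arrays also without control 17 (right). Pairs among ACR, ACRV1, SPACA1 and IZUMO1 lie at 0.67 to 0.83 on the left and at 0.14 to 0.47 on the right.

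The 7 genes were set beside 17 tested markers of spermatids that encode no acrosome protein, such as protamine, fibrous sheath and outer dense fibre genes. Each gene was centred on its mean over all arrays and the centred values were averaged per animal. The mean of the 7 genes ranged from -0.43 in prednisolone 30 to 0.18 in prednisolone 32 among treated animals, and from -0.73 in control 17 to 0.44 in control 23 among controls. In prednisolone 30 this mean was raised by SPACA3, at -3.07 and not well above background there. In the other prednisolone animals SPACA3 lay between -6.87 and -5.37. The values on 15 arrays thus include a probe that prednisolone 30 did not detect. The spermatid markers gave -0.36 in prednisolone 30, -0.73 in control 17 and 0.44 in control 23. Pearson r between both means was 0.89 on 15 arrays, 0.88 on 14 and 0.74 on 13, so the order of the animals was similar without either array that stood apart. The largest gaps were in prednisolone 29, where the 7 genes lay 0.27 below the spermatid markers, and prednisolone 25, where they lay 0.25 above.

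**Figure D4:**
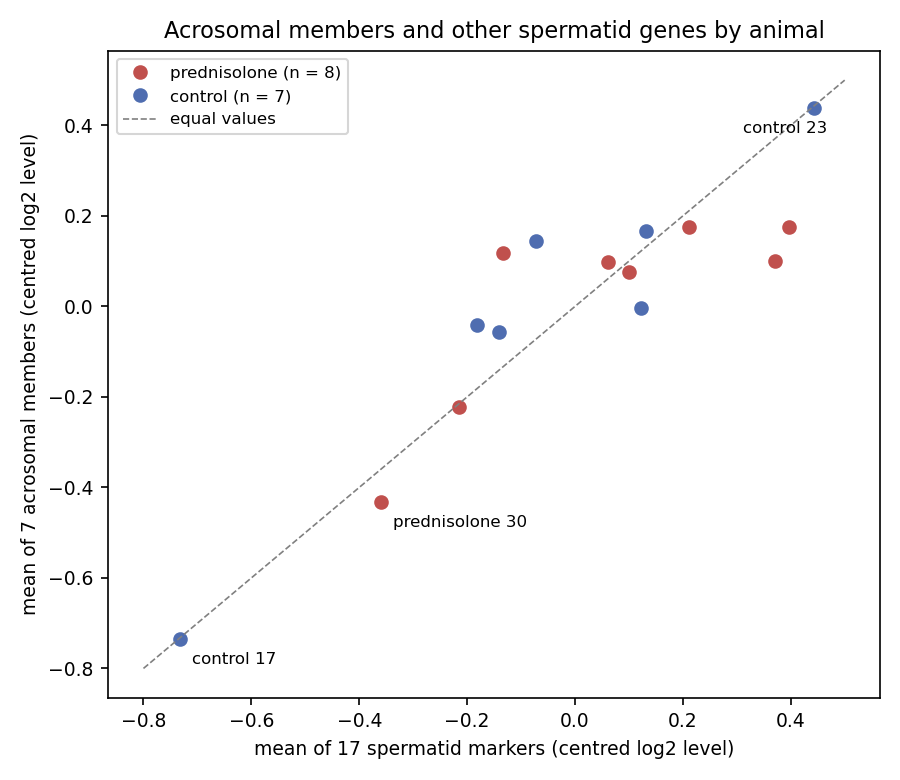
Mean centred log2 level of the 7 tested genes (vertical axis) against that of 17 spermatid markers (horizontal axis), with 1 point per animal, 8 prednisolone and 7 control. Control 17 lies at -0.73 on both axes and control 23 at 0.44 on both, and r is 0.74 on the 13 arrays without control 17 and prednisolone 30.

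Markers of other cells in the testis stood apart in the same animals for some lists and not for others. All 6 markers of peritubular myoid and smooth muscle cells were tested, and their mean centred level was -1.04 in prednisolone 30 and between -0.35 and 0.52 in the other prednisolone animals, against 1.50 in control 17 and between -0.42 and 0.39 in the other controls. The correlation of that mean with the mean of the 7 genes was -0.85 on 14 arrays and -0.56 on 13. The 6 macrophage markers averaged -0.91 in prednisolone 30 and between -0.23 and 0.25 in the other prednisolone animals, against 0.92 in control 17 and between -0.19 and 0.33 in the other controls. The 6 endothelial markers averaged 1.09 in prednisolone 30 and 0.93 in control 17, and the 10 tested meiotic markers -0.26 in prednisolone 30 and -0.47 in control 17. The 7 Leydig cell markers averaged 0.34 in prednisolone 30 and 0.0079 in control 17, and the 6 tested spermatogonial markers -0.22 in prednisolone 30 and -0.0044 in control 17. Each endothelial and each tested spermatogonial marker was well above background on only 7 of 8 prednisolone arrays. On prednisolone 30 no probe had a level under -4.75. The difference of the endothelial marker PECAM1 was 0.75 on all arrays and -0.02 without prednisolone 30. The means of dim markers on that array are therefore not comparable with those on control 17. The 11 tested Sertoli cell markers averaged -0.94 in prednisolone 30 and 0.37 in control 17. Their mean correlated with the mean of the 7 genes at -0.70 on 14 arrays and -0.77 on 13. For the macrophage markers this correlation was -0.88 on 14 arrays and -0.60 on 13, and for the endothelial markers -0.84 and -0.44. For the spermatogonial markers it was -0.27 and -0.52, for the Leydig cell markers -0.28 and -0.47, and for the meiotic markers 0.74 and 0.57. Of the 10 epididymal markers 1 was tested. The part of these cell types in the levels of the 7 genes was not tested.

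Of the 12445 candidate genes well above background on 14 arrays, the 8 whose level most resembled the mean of the 7 genes were MYO3B (r = 0.97), TMCO2 (0.96), FTMT (0.96), CDH15 (0.96), TTLL3 (0.95), DIAPH3 (0.95), GNG12 (0.95) and TBC1D20 (0.95), over 14 animals. Without control 17 the r of MYO3B was 0.96 and that of the other 7 genes 0.83 to 0.89. Of the 8 genes nearest on 13 arrays, 1 (MYO3B) was also among the 8 nearest on 14.

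Other genes of the acrosome and of fertilization were taken as 5 lists, and none of their tested genes passed the threshold on all 15 arrays, where 0% of all probes did. Of 26 listed genes for acrosome contents and membrane, 18 were tested, 13 with a difference above 0 and 5 below, and a median of 0.08. Without prednisolone 30 the median was 0.11, without control 17 it was -0.05, and without both it was 0.02, with 9 genes on each side. PRSS21, the membrane-anchored serine protease testisin, averaged 1.65 ± 0.39 with prednisolone and 1.27 ± 0.45 in controls, a difference of 0.39 (unadjusted p = 0.0932, adjusted p = 0.885, limma). ACE, the angiotensin-converting enzyme whose testis form is on sperm, averaged -4.54 ± 0.85 with prednisolone and -5.04 ± 0.28 in controls, and its difference of 0.50 was 0.22 without prednisolone 30. The ACE probe was well above background on 7 of 8 prednisolone arrays. LYZL6, a lysozyme-like sperm protein, differed by 0.28, or 0.21 without both animals.

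Of 26 genes listed for building the acrosome and for its release, 21 were tested, 13 above 0 and 8 below, with a median of 0.03. Of these, 2 had an unadjusted p under 0.05, against the 2.69% of all probes. PLCB1, a phospholipase C of calcium signalling, averaged -3.93 ± 0.23 with prednisolone and -3.41 ± 0.52 in controls, a difference of -0.52 (unadjusted p = 0.0234, adjusted p = 0.885, limma). Without both animals the difference was -0.43, and the PLCB1 probe was well above background on 7 of 8 prednisolone arrays. NAPA, the membrane fusion adaptor alpha-SNAP, averaged -0.35 ± 0.51 with prednisolone and -0.82 ± 0.30 in controls, a difference of 0.47 (unadjusted p = 0.0484) that was 0.35 without both animals. SYT8, a synaptotagmin, differed by 0.53 on all arrays and by 0.23 without both.

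For fusion and egg activation, 6 of 19 listed genes were tested, 3 above 0 and 3 below, with a median of -0.03. DCST2, a sperm membrane protein needed for fertilization in the mouse, had the smallest unadjusted p, 0.269 (limma). Its difference was 0.37 on all arrays and -0.08 without both animals. WBP2NL, the postacrosomal sheath protein PAWP, differed by -0.15. SPATA46, a protein of the sperm nuclear envelope in the mouse, differed by 0.21 on all arrays and by 0.44 without prednisolone 30.

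ADAM proteins and the factors that mature them gave 7 tested of 18 listed genes, 5 above 0 and 2 below, with a median of 0.18 that was 0.003 without prednisolone 30. CLGN, the testis chaperone calmegin that in the mouse is needed for fertilin assembly, averaged 4.30 ± 0.33 with prednisolone and 4.41 ± 0.36 in controls, a difference of -0.11. RNASE10, 1 of the 5 above 0, was well above background on 7 of 8 prednisolone arrays and 3 of 7 control arrays, so it was tested only because of the prednisolone group and most of its control values are bounds. Its difference was 0.86 on all arrays, 0.003 without prednisolone 30, 1.24 without control 17 and 0.38 without both. TPST2, a tyrosine sulfotransferase, differed by 0.27 on all arrays and by -0.02 without prednisolone 30.

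Of 8 genes for the egg's side of these contacts, 4 were tested, 2 above 0 and 2 below, with a median of 0.09. Without prednisolone 30 that median was -0.07. The mean centred level of this list was 0.79 in prednisolone 30 and between -0.43 and 0.09 in the other prednisolone animals. ZP4, a zona pellucida glycoprotein, averaged -4.67 ± 0.91 with prednisolone and -5.37 ± 0.77 in controls, a difference of 0.70 that was 0.37 without both animals. ZP2, another zona glycoprotein, differed by -0.42, or -0.27 without both. OOSP2, an oocyte secreted protein, differed by -0.30. ZP4, ZP2 and OOSP2 were each well above background on 7 of 8 prednisolone arrays. None of these had an unadjusted p under 0.05.

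**Figure D5:**
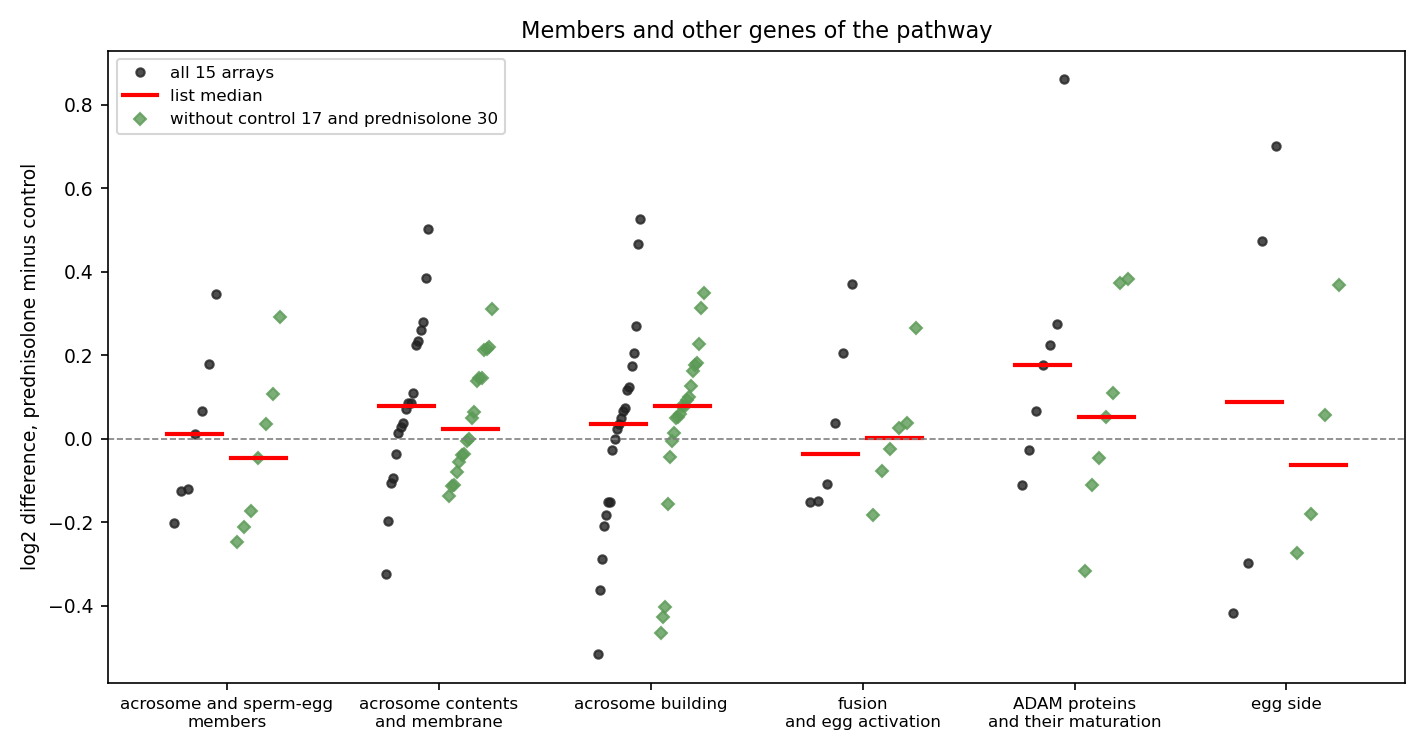
Difference in log2 level, prednisolone minus control, of each tested gene in the 5 lists of other acrosome and fertilization genes and of the 7 genes described above, on all 15 arrays and without control 17 and prednisolone 30. None passed the threshold, and the medians of the lists lie between -0.03 and 0.18 on all arrays.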

How the data were processed

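Testis RNA of 15 animals was measured on single-colour arrays, 1 per animal. Per the file headers, the authors' scanner files came from Feature Extraction 9.5.1.1 and give each spot's brightness as a linear intensity. Per the series' design text, the processed signal is background-subtracted and detrended. These intensities were not normalized between arrays. The authors' deposited table holds linear intensity values at a common level, with column medians from 440.0 to 496.9. The sources used here do not say how that level was set. Per the submitters' processing notes, R 2.11.1 was used.

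Control spots were left out (42990 spots of 21475 probes kept), spots with a flag for non-uniformity or as a population outlier were masked, and log2 signals were set relative to each array's 75th percentile and averaged per probe. Probes well above background on at least 7 arrays of either group were tested, 17411 in all. Names came from the files and a bovine gene table of assembly ARS-UCD2.0, through which 16414 probes had a symbol. Because the array's build is not given, no coordinates are printed. A gene with several probes was read through the brightest. The comparison used two-sided tests from limma 3.58.1 (lmFit, then eBayes, under R 4.3.3) without covariates, with Benjamini-Hochberg adjustment over all tested probes. The fit was also run on simulated data, in which deviations from the group mean had their signs flipped at random for each probe and array. That removed shifts shared by many probes of an array, so it says nothing about arrays that stand apart. No result here rests on it.

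Genes named are the 10 of the list, the 3 genes of each pathway list with the smallest unadjusted p, the 8 nearest by correlation and markers where needed. The genes and lists were chosen with earlier results of these data known. The number of arrays limits the precision. Alternatives covered scaling, background correction, the deposited table, masking, the filter, the probe rule, slide, scan day, array weights and each animal left out.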

Additional observations from a re-analysis of the deposited data

Results flagged for a closer look

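The sets of values examined included each tested gene, LOC509761 and the mean of the 7 genes. In each set the most extreme animal of each group was compared with the rest by Dixon's ratio at the 95% level. An animal past that limit was found in 8 of 20 groups of values. Chance alone would give about 1, but that number cannot be used to judge the 8. The genes were measured on the same arrays, and the mean was made from the 7 genes. The animals past the limit had also already been picked out in these data. Prednisolone 30, a single array, accounted for 6 of the 8. It was far below the other prednisolone animals for ACR, at 2.06, ACRV1, at 0.56, SPACA1, at 2.38, and IZUMO1, at -0.47. It was far above them for SPACA3, at -3.07, and LOC509761, at -0.21, both not well above background on that array. The values of prednisolone 30 in the authors' deposited table lay within the range of the other prednisolone animals for all 7 genes.

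Control 17 accounted for the other 2. ACRV1 was at 0.93 there, the mean of 2 spots that differed by 0.57, with the other controls from 1.90 upwards. The mean centred level of the 7 genes was -0.73, with the other controls between -0.06 and 0.44. In the authors' deposited table control 17 was also the lowest control for ACR, ACRV1, ZPBP2 and IZUMO1.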

How the results depend on the processing

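Across 33 alternatives, none of the 7 genes passed the threshold (limma), and the smallest adjusted p ranged from 0.535 for ZPBP2 to 0.841 for ACRV1. No paired analysis was possible because the groups share no replicate numbers. SPACA3 gave no value where probes had to be well above background on all 15 arrays. The depth of signal limits SPACA3 and SPAM1, whose probes were dim. The cause of the changes below was not tested.

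With each animal left out in turn, the differences ranged from -0.11 to 0.16 for ACR, -0.10 to 0.28 for ACRV1, -0.24 to 0.071 for SPACA1, -0.20 to 0.35 for SPACA3, -0.31 to -0.13 for ZPBP2, 0.16 to 0.48 for IZUMO1 and -0.25 to -0.01 for ADAM2. Differences that changed sign were as follows. Quantile normalization gave -0.043 for SPACA3, and array weights -0.14. ACR was at -0.042 with median scaling and -0.071 with normexp. It was also at -0.071 with slide as a block, a fit that used only the arrays of slide 1 and slide 4. Within scan day 1, the only day that held both groups, ACR was at -0.0025 and ADAM2 at 0.13. In the authors' deposited table SPACA1 was at 0.041 and SPACA3 at -0.11, without prednisolone 30 at 0.036 and -0.19, and without control 17 SPACA3 was at -0.13. Settings added after seeing the files were these last 2, the single slides, slide as a random block, and scan day 1 without both animals, and those that leave out control 17 or prednisolone 30 on all days were listed with earlier results of these data known. Within slide 1, SPACA1 was at 0.61, ZPBP2 at 0.14 and ADAM2 at 0.32, and the median of the 7 at 0.42. Within slide 4, ACR was at -0.80, ACRV1 at -0.75 and IZUMO1 at -0.69, with a median of -0.75. Within scan day 1 without both animals ACR was at -0.16 and SPACA3 at -0.076, and on all days without both SPACA3 was at -0.21.

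The median correlation of the 7 genes was 0.56 on 15 arrays, 0.42 on 14 and 0.15 on 13, and their median SD within groups 0.50, 0.36 and 0.28.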
